A study of Mus musculus with 2 samples.

Results

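The G2 and mitosis genes examined here are 45 genes whose proteins carry a cell from the end of DNA replication through chromosome segregation. They were taken by name from a given list of cell cycle genes, with no threshold on their values. The list was chosen with earlier results of these data known. The genes came out of 38458 gene columns in single-cell RNA-seq count tables of mouse embryonic stem cells (mESCs). All 45 had at least 1 unique molecular identifier (UMI, a tag that marks 1 captured RNA molecule) in both libraries. By role they comprised 11 cyclins, kinases and their regulators, 4 chromosome passenger complex genes, 11 kinetochore and checkpoint genes, 10 spindle and cytokinesis genes, 5 genes of the anaphase-promoting complex (APC/C) step and 4 genes of chromosome structure.

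The cells were the Terc-/- line DKO741, derived from E14 mESCs by targeting both alleles of Terc, the RNA template of telomerase, so both groups lacked the gene. Cells harvested at passage 100 (PD100) were pre-ALT cells, and cells harvested at passage 800 (PD800) were post-ALT cells, which keep their telomeres without telomerase by alternative lengthening of telomeres. Passage is the unit in the sample labels, whereas the paper uses PD for population doubling. The line was kept on mouse embryonic fibroblast feeders and taken off them for experiments. Each group was 1 library from 1 line, with no Terc+/+ library alongside. Time in culture, the state of the telomeres and the library therefore cannot be told apart, and all intervals given here are 95% intervals that cover counting error only.

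Entry into mitosis is driven by Cdk1 bound to cyclin A or cyclin B, which Wee1 restrains and the Cdc25 phosphatases release. Kinetochores then attach chromosomes to the spindle while the checkpoint holds back the APC/C, a ubiquitin ligase that, once activated by Cdc20, marks securin and cyclin B for destruction. Transcripts of many of these genes accumulate in G2, and the promoters of many carry a cell cycle homology region (CHR) and CCAAT boxes, read by the DREAM and MuvB complexes and by NF-Y. Embryonic stem cells have a short G1 phase, so that most cycling cells are in S or G2 phase at any time.

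Promoter sequence showed what these genes shared apart from their place on the list. RefSeq promoters (GRCm38.p6, 250 bases before to 50 bases after the annotated start) were found for 37 of the 45 genes, with 40 promoters in all. The CHR letters TTTGAA or TTCGAA, read on both strands, stood in 31 of the 40 promoters (77.5%), against 19.2% of all 32851 promoters of the same length. CCAAT on either strand stood in 32 (80%), against 37.4%, and at least 2 CCAAT in 20 (50%), against 11.7%. Both motifs stood in 28 promoters (70%), against 7.52% of all promoters. A match to these letters is a description of the window and not evidence of binding, and neighbouring motifs were allowed to overlap. The 5 promoters below are shown because they span genes that were higher (Cks2, Ube2c) and lower (Cdk1, Cdc20, Pttg1) in PD800 cells and cover the range from many motifs to none. They are written 5′ to 3′ on the strand of the gene, with CHR and CCAAT letters in capitals.
Cks2 (chr13:51644982-51645281, plus strand): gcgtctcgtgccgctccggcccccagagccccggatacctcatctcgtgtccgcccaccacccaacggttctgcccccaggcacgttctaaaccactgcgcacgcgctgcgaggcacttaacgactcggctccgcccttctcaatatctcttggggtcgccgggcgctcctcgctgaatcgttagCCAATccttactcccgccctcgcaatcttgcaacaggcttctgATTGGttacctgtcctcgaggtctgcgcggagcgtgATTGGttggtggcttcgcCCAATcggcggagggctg
Ube2c (chr2:164769679-164769978, plus strand): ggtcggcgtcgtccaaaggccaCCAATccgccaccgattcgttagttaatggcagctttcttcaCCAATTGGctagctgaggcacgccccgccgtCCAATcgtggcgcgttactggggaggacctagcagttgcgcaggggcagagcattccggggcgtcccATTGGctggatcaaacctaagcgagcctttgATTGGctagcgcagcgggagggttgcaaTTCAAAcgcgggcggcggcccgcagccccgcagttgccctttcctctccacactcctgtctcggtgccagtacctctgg
Cdk1 (chr10:69352863-69353162, minus strand): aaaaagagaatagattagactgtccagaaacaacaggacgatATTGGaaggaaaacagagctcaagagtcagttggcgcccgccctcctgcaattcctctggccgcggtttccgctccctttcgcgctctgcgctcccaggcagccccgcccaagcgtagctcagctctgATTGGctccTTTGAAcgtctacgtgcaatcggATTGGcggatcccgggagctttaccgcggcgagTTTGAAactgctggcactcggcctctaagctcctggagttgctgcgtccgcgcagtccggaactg
Cdc20 (chr4:118437294-118437593, minus strand): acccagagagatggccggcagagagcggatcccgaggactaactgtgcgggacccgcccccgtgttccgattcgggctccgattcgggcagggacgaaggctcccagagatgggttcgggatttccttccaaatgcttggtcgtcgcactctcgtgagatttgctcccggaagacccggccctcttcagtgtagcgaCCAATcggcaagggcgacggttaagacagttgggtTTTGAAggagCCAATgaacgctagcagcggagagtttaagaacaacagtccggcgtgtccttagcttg
Pttg1 (chr11:43425932-43426231, minus strand): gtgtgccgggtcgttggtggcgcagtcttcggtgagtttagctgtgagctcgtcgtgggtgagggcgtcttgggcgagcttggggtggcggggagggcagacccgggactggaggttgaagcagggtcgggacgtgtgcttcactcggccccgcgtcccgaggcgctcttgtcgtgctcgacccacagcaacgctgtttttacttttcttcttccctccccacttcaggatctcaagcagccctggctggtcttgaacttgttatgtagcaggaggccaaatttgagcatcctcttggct
The Ube2c promoter held 6 CCAAT, of which a pair overlapped, and 1 CHR starting 29 bases before the start. The Cdk1 promoter held 2 CHR and 3 CCAAT, and the Cdc20 promoter 1 CHR and 2 CCAAT. The Cks2 promoter held 4 CCAAT and no CHR in this window. The Pttg1 window held neither, but it lies wholly inside the gene in a second annotation, which starts the gene at chr11:43426251. Sequence before that start was not read, so the lack of motifs holds for this window only. The window of Kif2c also lies inside its gene in that annotation, and both count among the 40 promoters.

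After removal of cells with fewer than 1000 UMIs or more than 20% mitochondrial UMIs, 814 of 1291 barcodes remained in PD100 and 900 of 1666 in PD800, with 1826233 and 2580963 UMIs and medians of 2151 and 2701.5 UMIs per cell. Terc had 0 UMIs in both libraries. With no Terc+/+ library alongside, whether Terc RNA could be detected at all was not tested, so this is no check of the knock-out. All 11 embryonic stem cell markers were detected in both libraries. Their summed log2 ratio of 0.04 was carried by Dppa5a (16145 and 24974 UMIs), and single markers ran from -0.98 for Dppa4 to 1.51 for Esrrb, with a median of -0.18. All 17 extraembryonic endoderm markers were detected in PD100 and 14 in PD800 (Gata6, Srgn and Ctsh were at 0), summing to 2148 and 411 UMIs. Sparc alone gave 926 and 287 of these, and Gata4, Sox17 and Sox7 had 2, 2 and 1 UMIs in PD800. At full depth, 120 PD100 and 33 PD800 cells had 3 or more UMIs of the 17 markers, which does not by itself make them endoderm. The 10 fibroblast markers summed to 34 and 36 UMIs, with Col1a1 and Lum at 0 in PD100 and Dcn and Twist2 at 0 in PD800. The libraries shared 21 barcodes, of which 8 were kept in both. Leaving out the endoderm-marker cells, or the shared barcodes, changed the sign of no member whose log2 ratio had an interval that excluded 0.

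Summed over the 45 genes, PD100 cells held 13572 UMIs, or 7432 CPM (UMIs per 1000000 UMIs of the library), and PD800 cells 17211 UMIs, or 6668 CPM. The log2 ratio of PD800 over PD100 was -0.16 (-0.19 to -0.12), so that these genes took 0.743% of all PD100 UMIs and 0.667% of all PD800 UMIs. The scale matters to this reading. The median log2 ratio of all 6984 genes with at least 50 UMIs (the tested genes) was -0.34, and set against that median the summed members stood at 0.19, on the other side of 0. The sum also leans on a few genes. Without Cks2, Birc5 and Bub3, picked out after their high ratios were seen so that the sum had to fall, it was -0.33, or 0.01 relative to the median of all tested genes.

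Of the 44 members with at least 50 UMIs, only Cdc25b (8 and 11 UMIs) falling short, the log2 ratios had a median of -0.38 and quartiles of -0.59 and 0.06, beside a median of -0.34 and quartiles of -0.82 and 0.22 over all tested genes. The members were 21 above and 23 below the median of all tested genes. By CPM, 1 member, Mki67, was at least 2-fold higher in PD800 cells (2.27% of the 44), where 9.22% of all tested genes were. The members at least 2-fold lower were 5 (11.4%), Incenp, Kif11, Kif2c, Ube2s and Pttg1, where 16.9% of all tested genes were. Relative to the median of all tested genes, 2 members were at least 2-fold higher (Mki67 and Cks2), beside 13.9% of all tested genes, and 0 were 2-fold lower, beside 7.79%. With 1 library per group these are counts of sizes and not of genes shown to change.

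Because the scaling moved so many values, a direction was read only where the counting interval lay on the same side of 0 under all 4 scalings tried (the library total, the total without mitochondrial genes, and median ratios over tested genes or over all genes). On this rule 8 members were higher in PD800 cells (18.2% of 44, against 19.2% of all tested genes), 7 were lower (15.9%, against 20.3%) and 30, Cdc25b among them, had no direction that held. Both shares were near those of all tested genes. The plot of log2 ratios by role shows the members on both sides of the median of all tested genes in each role.

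**Figure D1:**
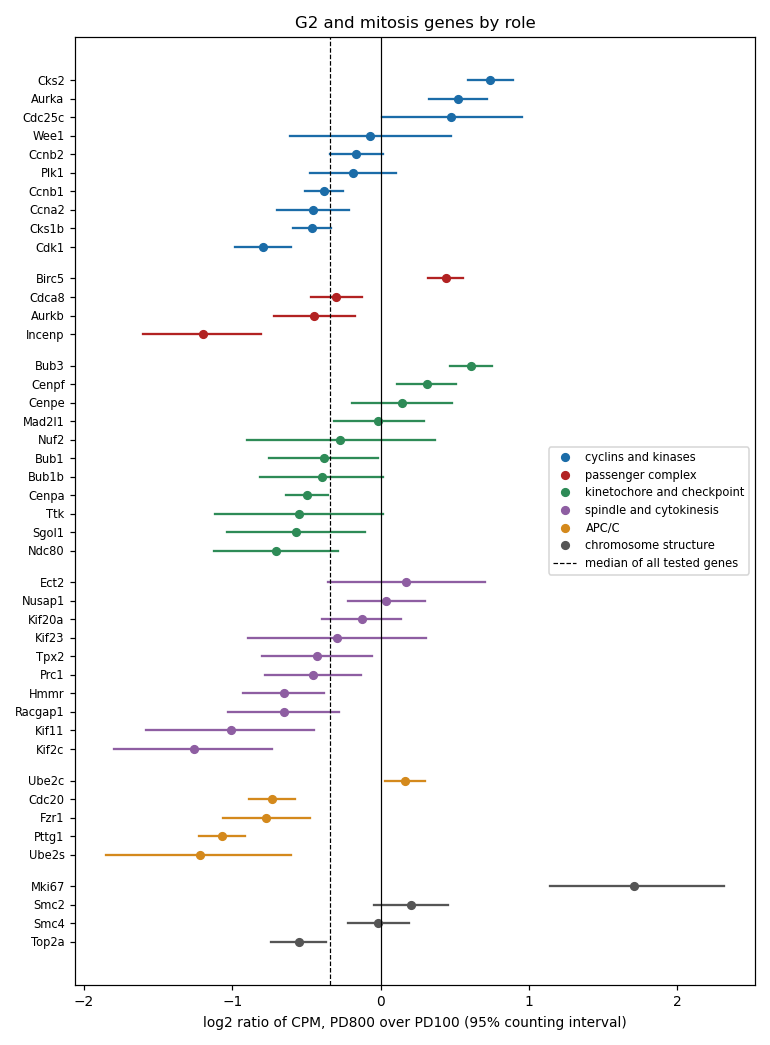
The log2 ratio of CPM in PD800 over PD100 cells (x axis) is drawn for the 44 members with at least 50 UMIs, ordered within 6 roles that are given by colour. Points are the ratios from 1 library per group, bars are 95% counting intervals, and the dashed line is the median of all tested genes (-0.34). Mki67 stands farthest to the right (1.71), and 4 of the 5 APC/C genes stand left of the dashed line.

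Among cyclins and kinases, the mitotic kinase Cdk1 itself was lower in PD800 cells while its small partner Cks2 and the spindle pole kinase Aurka were higher. Cdk1 had 515 UMIs in PD100 (282 CPM) and 420 in PD800 (163 CPM), a log2 ratio of -0.79 (-0.98 to -0.60). Cks2, which binds Cdk1 and guides it to its substrates, had 521 UMIs (285 CPM) and 1229 UMIs (476 CPM), a log2 ratio of 0.74 (0.59 to 0.89). Aurka, which matures centrosomes and activates Plk1, had 323 UMIs (177 CPM) and 655 UMIs (254 CPM), a log2 ratio of 0.52 (0.33 to 0.72). Cdc25c, a phosphatase that activates Cdk1, was higher by a narrow margin, with 59 and 116 UMIs and a log2 ratio of 0.48 (0.01 to 0.95). Its interval included 0 with no cell filter (0.28, -0.13 to 0.70), with at least 2000 UMIs per cell (-0.05 to 1.01) and without called doublets (-0.01 to 0.93), and Gm3550 (20 and 22 UMIs) overlaps it on the opposite strand.

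The cyclins themselves had no direction that held under every scaling. Ccnb1, which encodes the main mitotic cyclin, had 935 UMIs (512 CPM) in PD100 and 1013 (392 CPM) in PD800, a log2 ratio of -0.38 that became -0.04 relative to the median of all tested genes. Ccna2 (276 and 284 UMIs) had a log2 ratio of -0.46, and Ccnb2 (450 and 568 UMIs) one of -0.16 with an interval that included 0. Cks1b, the paralog of Cks2, had 996 and 1022 UMIs and a log2 ratio of -0.46, or -0.12 relative to the median. Wee1, the inhibitory kinase of Cdk1 (52 and 70 UMIs), and Plk1 (182 and 226 UMIs) had log2 ratios of -0.07 and -0.19 with intervals that included 0. As a sum the 11 genes had a log2 ratio of -0.12 (-0.18 to -0.06), or 0.22 relative to the median.

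The 4 genes of the chromosome passenger complex, which corrects faulty attachments and later drives cytokinesis, went apart. Birc5, the survivin subunit, had 889 UMIs (487 CPM) in PD100 and 1703 (660 CPM) in PD800, a log2 ratio of 0.44 (0.32 to 0.56). Incenp, the scaffold, had 143 UMIs (78.3 CPM) and 88 UMIs (34.1 CPM), a log2 ratio of -1.20 (-1.60 to -0.81). The kinase Aurkb (219 and 227 UMIs) and the borealin gene Cdca8 (521 and 598 UMIs) had log2 ratios of -0.45 and -0.30, or -0.11 and 0.04 relative to the median of all tested genes. The sum of the complex, at 0.06 (-0.02 to 0.15), thus hid opposite values of its subunits.

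At the kinetochore, Bub3 and Cenpf were higher in PD800 cells and no gene was lower under every scaling. Bub3, which docks the checkpoint kinases at kinetochores, had 579 UMIs (317 CPM) in PD100 and 1248 (484 CPM) in PD800, a log2 ratio of 0.61 (0.47 to 0.75). Cenpf, a large outer kinetochore protein that peaks in G2, had 330 UMIs (181 CPM) and 578 UMIs (224 CPM), a log2 ratio of 0.31 (0.11 to 0.51). The checkpoint kinase genes that Bub3 recruits had lower ratios, with Bub1 (121 and 131 UMIs) at -0.38 and Bub1b (97 and 104 UMIs) at -0.40. The remaining 7 genes lay between -0.71 for Ndc80 (105 and 91 UMIs), which binds microtubules, and 0.14 for the kinesin gene Cenpe (123 and 192 UMIs). Cenpa, the centromeric histone H3, had 818 and 820 UMIs and a log2 ratio of -0.50, or -0.15 relative to the median. The median of the 11 genes was -0.38, or -0.04 relative to the median of all tested genes. Their sum, at 0.01 (-0.07 to 0.08), leaned on Bub3, which made up 1248 of 3565 UMIs in PD800.

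Spindle and cytokinesis genes had a summed log2 ratio of -0.38 (-0.49 to -0.27), or -0.04 relative to the median of all tested genes, and their median was -0.44. The only gene in this role whose direction held under every scaling was Kif2c, the microtubule depolymerase that frees wrongly attached kinetochores. It had 83 UMIs (45.4 CPM) in PD100 and 49 (19.0 CPM) in PD800, a log2 ratio of -1.26 (-1.80 to -0.73). Kif11, the motor that pushes spindle poles apart, had 67 and 47 UMIs and a log2 ratio of -1.01 (-1.58 to -0.45), which did not hold under every scaling. Hmmr (235 and 211 UMIs) and Racgap1 (127 and 114 UMIs), the latter a subunit of centralspindlin, were both at -0.65. Tpx2 (121 and 127 UMIs) was at -0.43 and Prc1 (159 and 164 UMIs) at -0.45. Nusap1 (206 and 299 UMIs), a microtubule bundling protein, Kif20a (212 and 274 UMIs), Kif23 (46 and 53 UMIs) and Ect2 (51 and 81 UMIs), which starts the cleavage furrow, had intervals that included 0. Nusap1 overlaps Oip5 (120 and 184 UMIs) and Kif20a overlaps Cdc23 (123 and 210 UMIs) on the opposite strand, and whether counting used strand is not given in the sources used here, so their values are uncertain. Ccna2 and Exosc9 (78 and 145 UMIs) and Prc1 and Rccd1 (42 and 76 UMIs) overlap in the same way.

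The APC/C step had the lowest summed ratio of the 6 roles. Of its 5 genes, 4 were lower in PD800 cells under every scaling, as were 20.3% of all tested genes. The other 1 was higher, as were 19.2% of all tested genes. Pttg1, which encodes securin, the inhibitor of separase that the APC/C destroys at anaphase, had 859 UMIs (470 CPM) in PD100 and 579 (224 CPM) in PD800, a log2 ratio of -1.07 (-1.22 to -0.91). The activators followed the same direction: Cdc20, used from metaphase, had 737 UMIs (404 CPM) and 628 UMIs (243 CPM), a log2 ratio of -0.73 (-0.89 to -0.57), and Fzr1, used from anaphase into G1, had 215 UMIs (118 CPM) and 178 UMIs (69.0 CPM), a log2 ratio of -0.77 (-1.07 to -0.48). The E2 enzymes differed. Ube2c, which starts ubiquitin chains, had 719 UMIs (394 CPM) and 1137 UMIs (441 CPM), a log2 ratio of 0.16 (0.03 to 0.30), whose interval included 0 with no cell filter (0.11, -0.01 to 0.24) and with at least 2000 UMIs per cell (0.10, -0.05 to 0.26). Ube2s, which lengthens them, had 61 UMIs (33.4 CPM) and 37 UMIs (14.3 CPM), a log2 ratio of -1.22 (-1.85 to -0.61). Ube2s overlaps Rpl28 (1448 and 2593 UMIs) and Cdc20 overlaps Elovl1 (55 and 37 UMIs) on the opposite strand, so both are uncertain in the sense given above. The sum of the 5 genes was -0.52 (-0.60 to -0.44), or -0.18 relative to the median of all tested genes. With median ratios over all genes it was only -0.04.

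Among the genes of chromosome structure, Mki67, which coats mitotic chromosomes and marks cycling cells, had the highest ratio of all members. It had 31 UMIs (17.0 CPM) in PD100 and 143 UMIs (55.4 CPM) in PD800, a log2 ratio of 1.71 (1.14 to 2.32), or a 3.26-fold difference. Top2a, the topoisomerase that untangles sister chromatids, had 492 and 474 UMIs and a log2 ratio of -0.55, or -0.21 relative to the median. The condensin genes Smc2 (216 and 351 UMIs) and Smc4 (336 and 470 UMIs) had log2 ratios of 0.20 and -0.01 with intervals that included 0.

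Ratios between genes that work together do not depend on how a library is scaled. For 19 such pairs, chosen after the values were seen, the UMI ratio of the first gene to the second was set side by side between libraries. Each log2 change is the difference of the log2 ratios of the 2 genes, so the pairs add no evidence and their number is not read. Only the change in a ratio is read, since levels of different genes are not comparable here. The ratio of Cks2 to Cks1b changed from 0.523 in PD100 to 1.20 in PD800 cells, a log2 change of 1.20 (1.00 to 1.40). The ratio of Birc5 to Incenp changed by 1.64 (1.23 to 2.06) and that of Aurka to Aurkb by 0.97 (0.63 to 1.31). Against Cdk1, whose low ratio enters each of these values, Ccna2 was at 0.34 (0.02 to 0.65), Ccnb1 at 0.41 (0.18 to 0.64) and Ccnb2 at 0.63 (0.37 to 0.89). Bub3 gained on Bub1 by 0.99 (0.60 to 1.39), and Ube2c gained on Ube2s by 1.38 (0.75 to 2.03). Tpx2, which binds and activates the Aurka kinase, fell behind Aurka, at -0.95 (-1.37 to -0.53). The interval included 0 for the activators Cdc20 to Fzr1, at 0.04 (-0.29 to 0.38), for Cenpf to Cenpe, at 0.17 (-0.23 to 0.56), and for Smc2 to Smc4, at 0.22 (-0.11 to 0.54).

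**Figure D2:**
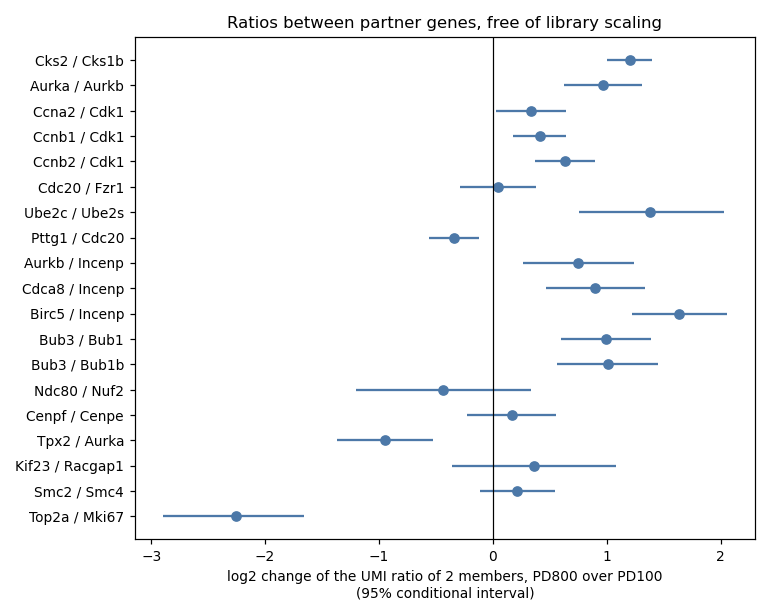
The log2 change from PD100 to PD800 in the UMI ratio of 2 members (x axis) is drawn for 19 pairs of genes that work together, with 95% counting intervals as bars. Points right of 0 mean that the first gene of the pair gained on the second. Birc5 to Incenp lies farthest right (1.64) and Top2a to Mki67 farthest left (-2.26).

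Other genes of the same pathway gave a similar spread. Among all tested genes the median was -0.34, with 9.22% at least 2-fold higher and 16.9% at least 2-fold lower. Of 55 related G2 and mitosis genes that are no members, 52 had at least 50 UMIs, with a median log2 ratio of -0.41. Of these 52, 1 was at least 2-fold higher and 7 were at least 2-fold lower. The gene above 2-fold was Anapc11, the catalytic RING subunit of the APC/C, with 869 and 2498 UMIs and a log2 ratio of 1.02 (0.91 to 1.14). The subunits Anapc10 (125 and 264 UMIs) and Anapc13 (193 and 423 UMIs) were at 0.58 and 0.63, while Cdc16 (222 and 146 UMIs) was at -1.10 (-1.41 to -0.80). Of the other subunits listed, Cdc23 was at 0.27. The rest were below 0: Anapc1, Cdc27, Cdc26, Anapc2, Anapc5, Anapc7 and Anapc4 ran from -0.15 to -0.86. Subunits of the ligase itself thus lay on both sides, with more of them below 0 than above. Zwint, a kinetochore protein, had the lowest ratio, with 323 and 160 UMIs and -1.51 (-1.80 to -1.23). Of the regulators that drive G2 transcription, Mybl2 (402 and 342 UMIs) was at -0.73 (-0.94 to -0.52), or -0.39 relative to the median of all tested genes. Foxm1, with 14 and 35 UMIs, was too sparse to place, as was Lin52, with 9 and 18. Lin9, Lin37 and Lin54 were at -0.43, -0.04 and -0.10, with intervals that included 0. For comparison with the phase before, 24 of 25 S phase genes had at least 50 UMIs, with a median of -0.59. Beside the same 9.22% and 16.9% of all tested genes, 0 of these 24 were at least 2-fold higher and 4 at least 2-fold lower. The sum of the 25 S phase genes, at -0.56 (-0.61 to -0.51), lay below that of the G2 and mitosis genes, with intervals that did not overlap.

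The share of cells with at least 1 UMI of a member was compared after each cell had been thinned at random to 1000 UMIs, since PD800 cells were deeper. Across the 44 members this share ran from 1.97% to 36.4% of PD100 cells and from 1.44% to 44.4% of PD800 cells. It was higher in PD800 cells for 15 members and lower for 29. The same count was not made over all tested genes, whose median log2 ratio was -0.34. It is therefore not read as a trait of the members. Birc5 was seen in 33.0% of PD100 and 44.4% of PD800 cells (53.2% and 72.3% unthinned), Cks2 in 22.5% and 35.4% (37.6% and 59.7% unthinned), and Bub3 in 22.1% and 34.7% (40.8% and 61.6% unthinned). Pttg1 went the other way, from 32.8% to 16.7% (48.9% and 34.7% unthinned), as did Cdk1, from 23.2% to 12.6% (37.2% and 30.3% unthinned). The intervals overlapped for Aurka, at 17.4% and 21.8%, and for Ube2c, at 27.5% and 29.8%. These cells included no type known to lack the genes, so the share due to free RNA in droplets was not measured.

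**Figure D3:**
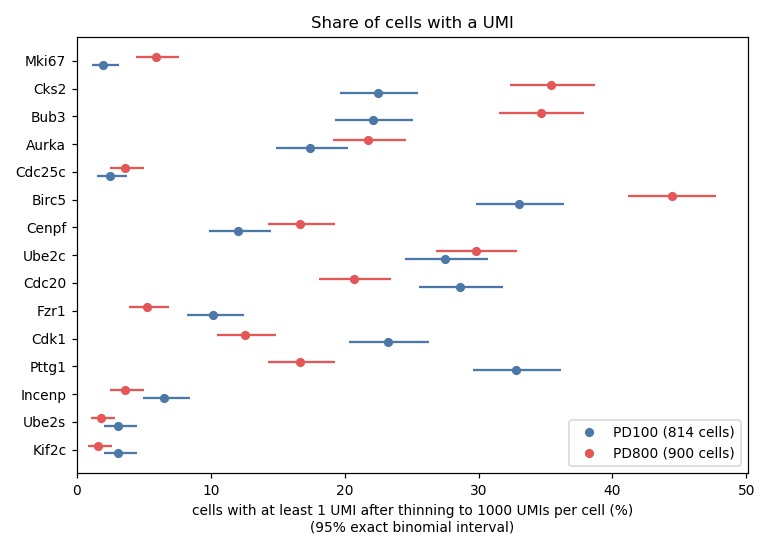
The share of cells with at least 1 UMI after thinning to 1000 UMIs per cell (x axis, %) is drawn for the 15 members whose direction held under every scaling, in 814 PD100 cells (blue) and 900 PD800 cells (red). Bars are exact 95% binomial intervals. Birc5, Cks2 and Bub3 were seen in more PD800 cells and Pttg1, Cdc20 and Cdk1 in fewer.

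Summed over the 45 genes, member UMIs were found in nearly all barcodes kept as cells. At 1000 UMIs per cell, 812 of 814 PD100 cells (99.8%) and 894 of 900 PD800 cells (99.3%) had at least 1 member UMI, with medians of 7 and 6 member UMIs per cell, 10th percentiles of 3 and 3, 90th percentiles of 12 and 11, and a maximum of 24 in both. At about 7 UMIs per cell the share with any UMI is close to its ceiling, and barcodes left out by the cell filter carried member RNA at 7451 CPM in PD100 and 6623 CPM in PD800, so the part of free RNA in this share was not tested. The distribution had a single hump in each library, and no group of cells with many member UMIs stood apart. At so few UMIs per cell, counting noise can merge such a group into the rest, so the shape cannot show whether one exists. PD100 cells with 3 or more endoderm-marker UMIs had a mean of 7.34 member UMIs and the other PD100 cells 7.29, and in PD800 these means were 7.45 in 33 cells and 6.66 in the others.

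**Figure D4:**
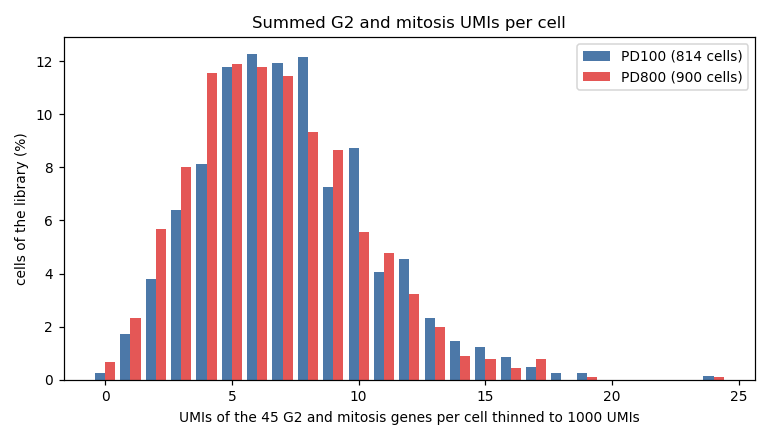
The share of cells (y axis, % of the library) is drawn against the summed UMIs of the 45 members per cell thinned to 1000 UMIs (x axis) for 814 PD100 cells (blue) and 900 PD800 cells (red). Both libraries form a single hump with medians of 7 and 6 UMIs and a long right tail that reaches 24.

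If the 45 genes rose and fell together between cells, their summed UMIs would vary more than the separate genes allow. Over 20 random thinnings, the variance of the sum was 1.16 times that of independent genes in PD100 (range 1.11 to 1.22) and 1.47 times in PD800 (range 1.42 to 1.52), and in the first thinning, outside these 20, it was 1.17 and 1.35 times. The thinnings reuse the same cells, so these ranges show the effect of the draw and not a replicate error. The mean correlation between 2 members over cells, among the 20 with at least 0.1 UMI per cell in the first thinning, was 0.006 in PD100 and 0.018 in PD800, both small. In the first thinning 5 of 190 member pairs in PD100 (2.63%) and 1 in PD800 (0.526%) reached a correlation of 0.1, where 0.537% and 0.411% of all pairs of such genes did, and 0 pairs reached it in both libraries. That draw was low for PD800. Its mean pair correlation there was 0.013, below the range of the 20 random thinnings (0.016 to 0.022). The pair counts are therefore not compared between the libraries.

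By role, the sum of each role was on average positively correlated with the sum of all other members in both libraries. Over 20 thinnings this correlation was 0.09 in PD100 and 0.18 in PD800 for cyclins and kinases, 0.01 and 0.14 for the passenger complex, 0.06 and 0.17 for the kinetochore, 0.11 and 0.16 for the spindle, 0.07 and 0.15 for the APC/C step and 0.04 and 0.08 for chromosome structure. All 6 were higher in PD800 cells. Single genes were weaker still: Nusap1 reached 0.11 in PD100 and 0.13 in PD800 and Ube2c 0.10 and 0.13, whereas Birc5 was at -0.03 in PD100 and 0.10 in PD800. Of the 45 members, 35 had a positive mean correlation in PD100 and 43 in PD800. Among all pairs of genes with at least 0.1 UMI per cell in the first thinning, 48.2% were positive in PD100 and 48.4% in PD800. That share concerns pairs and not correlations with a sum. The counts of members and of roles were not made for other gene sets, so they are not read as a trait of the members. The correlation of the member sum with the S phase sum was -0.01 in PD100 and -0.09 in PD800, and that with the cell's total UMIs before thinning 0.09 and 0.02. That with the sum of the 55 related G2 and mitosis genes went the other way from the roles, at 0.13 in PD100 and 0.06 in PD800. These are descriptions over 814 and 900 cells that share a library, and at these counts weak values carry little weight.

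**Figure D5:**
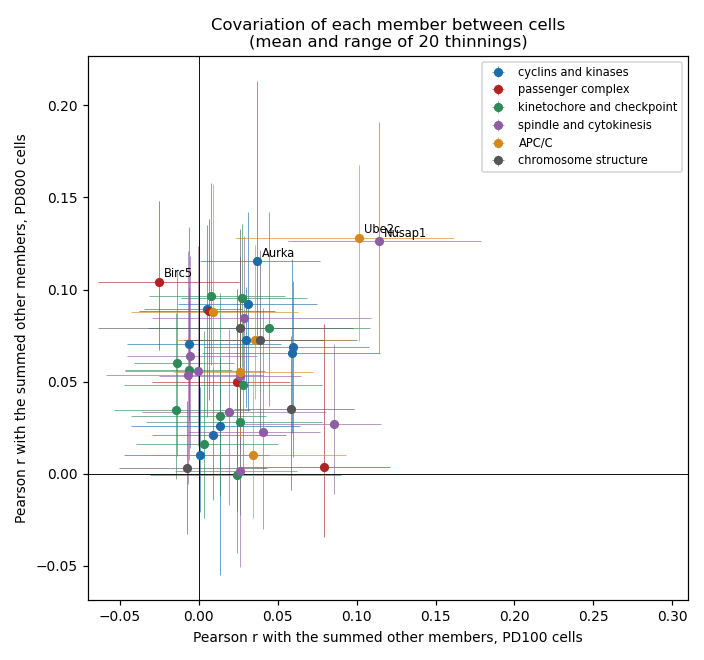
Each point is 1 member, placed by the Pearson correlation over cells of its thinned UMIs with the sum of the other members in PD100 (x axis) and PD800 (y axis) cells. Points are means and bars the range of 20 random thinnings, and colours are roles. Most points lie above 0 on both axes, and Nusap1 and Ube2c lie above 0.1 on both.

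Among 1351 other genes with at least 0.1 UMI per thinned cell, the 10 whose smaller correlation with the member sum was highest were Ndufs6, Snx3, Arl6ip1, Psenen, Rpl3, Hn1, Trmt112, Calm3, Kpna2 and Ubb. The 5 at the other end were Irgm1, Cct6a, Dnajb14, Ccnd3 and Get4. This order depended on the draw, and over 20 thinnings the means in PD100 and PD800 were 0.009 and 0.002 for Snx3, 0.08 and 0.02 for Ndufs6, 0.04 and 0.02 for Psenen and -0.01 and 0.05 for Trmt112. Kpna2, a nuclear import receptor, kept 0.07 and 0.14, Arl6ip1 0.08 and 0.14, and Hn1 0.06 and 0.16 in PD100 and PD800. Rpl3, a ribosomal protein gene, kept 0.07 and 0.08, the ubiquitin gene Ubb 0.07 and 0.05, and Calm3 0.04 and 0.04.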

How the data were processed

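Single-cell RNA-seq was measured by inDrops in 1 library of PD100 and 1 of PD800 cells. The authors mapped reads to a transcriptome built from GRCm38/mm10 with the inDrops pipeline and deposited raw UMI counts per cell barcode and gene, without normalisation. Cells with at least 1000 UMIs and at most 20% mitochondrial UMIs were kept. The study states the same limits on total reads, and here they were set on UMIs, which left 814 and 900 cells, more in each library than the study states. UMIs were summed per library and scaled to CPM. CPM carry exact Poisson, ratios exact conditional (Clopper-Pearson) and shares exact binomial 95% intervals. With 1 library per group no test was made. Ratios over all genes used those with at least 50 UMIs. Cells were thinned to 1000 UMIs (seed 1, and 20 further draws added after the data were seen). Scrublet, at an expected rate of 5%, called 14 (1.72%) and 8 (0.889%) cells as doublets, which were kept. The G2 and mitosis genes were described by role, some of them only within a range, and for the cell pattern the 10 most and 5 least correlated other genes were named. The members and lists were chosen with earlier results of these data known. The scripts were tested on simulated data. Python 3.11.15, NumPy 2.4.6, SciPy 1.17.1, pandas 2.3.3 and Scanpy 1.11.5 were used.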

Additional observations from a re-analysis of the deposited data

Results flagged for a closer look

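The barcodes left out by the cell filter, used otherwise only where that filter was dropped as an alternative, also held RNA of these genes. The 477 PD100 barcodes held 1839 member UMIs (7451 CPM) and the 766 PD800 barcodes 3036 (6623 CPM), a log2 ratio of -0.17 (-0.25 to -0.09). This was flagged because the signal lies outside the cells that were analysed. Whether these barcodes are small cells, damaged cells or free RNA was not tested.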

How the results depend on the processing

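No paired analysis was possible because each group had 1 library, and no replicate could be left out. All 14 alternatives were run, of which 2 were added after seeing the data (median ratios over all genes, and the mean of 20 random thinnings). Of the 30 members whose interval excluded 0, 22 kept their sign under every alternative and 8 changed it, all under another scaling and 0 without called doublets, endoderm-marker cells, shared barcodes or the cell filter, or at 2000 UMIs per cell. Of the 15 whose interval included 0, 11 changed sign under at least 1 alternative. The intervals of Cdc25c and Ube2c came to include 0 under other cell filters, as given in the report. With median ratios over tested genes, and then over all genes, the log2 ratio of the summed members was 0.186 and 0.316 (-0.106 on the total without mitochondrial genes), of cyclins and kinases 0.222 and 0.352, of the passenger complex 0.405 and 0.535, of the kinetochore 0.349 and 0.479, of the spindle -0.0385 and 0.0916, of the APC/C step -0.175 and -0.0449, of chromosome structure 0.263 and 0.393 (-0.22 with cells of at least 2000 UMIs), and the median member -0.0421 and 0.0881. Members at least 2-fold higher numbered 2 and 3, and 0 at a minimum of 200 UMIs, and those 2-fold lower 0 and 0, and 2 at that minimum. Of members whose interval excluded 0, over all genes Ccna2 (0.014), Ccnb1 (0.089), Cks1b (0.010), Aurkb (0.025), Cdca8 (0.172), Bub1 (0.088), Tpx2 (0.043) and Prc1 (0.018) came out above 0, and over tested genes Cdca8 (0.042), besides 10 and 9 members whose interval included 0.

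Per-cell values moved with depth. Thinned to 2000 UMIs, and then without thinning, PD100 and PD800 had a share of cells with a member UMI of 100% and 99.8%, then 100% and 99.9%, a variance over mean of 2.26 and 2.45, then 5.43 and 7.44, a variance over that of independent genes of 1.42 and 1.74, then 2.89 and 4.11, and a mean pair correlation of 0.0169 and 0.0211, then 0.0541 and 0.0859. The latter was 0.00397 in PD100 with another seed, and 0.00491 and 0.018 as the mean of 20 thinnings with the pairs chosen anew in each.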
